A study of Rattus norvegicus with 16 samples.

Results

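Matricellular proteins are secreted into the extracellular matrix but bear little load there. They bind collagens, integrins and growth factors, and so set how cells attach, migrate and respond to TGF-beta. Most are scarce in resting adult muscle and appear during development, wound repair and fibrosis, made mainly by fibroblasts and tendon cells and, for osteopontin, also by macrophages. The 10 genes described here were taken by symbol from the 17147 genes of the table: 2 tenascins (Tnn and Tnc), periostin (Postn), 3 thrombospondins (Thbs1, Thbs2 and Thbs4), Sparc, osteopontin (Spp1) and 2 CCN proteins, listed under their older symbols Ctgf (Ccn2) and Cyr61 (Ccn1). All 10 were found, and all 10 passed the filter for low counts. The list was chosen by name with fold changes of these libraries against unoperated muscle already known, so the members' values are a description and no p-value is given for them.

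RNA of the supraspinatus, a rotator cuff muscle, was sequenced from Sprague Dawley rats in 16 libraries, 4 per group. The 0-day group was unoperated. The 10-, 30- and 60-day groups had, on both sides, a full-thickness supraspinatus tear together with suprascapular neurectomy, which cuts the nerve to the muscle. Tear and denervation were combined in every operated group, and no group had a sham operation, so their parts cannot be told apart. The labels give neither age nor sex, and do not state whether the libraries came from separate rats, so the spread between libraries may be partly technical.

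Totals ran from 17.2 to 39.9 M fragments per library, and those of the 60-day group (17.2 to 22.4 M) lay below all others. A level of 3 fragments, taken as the smallest that the depth can show, was 0.0752 to 0.175 CPM. CPM stands for fragments per 1 M fragments, scaled here with TMM factors. The label of the tissue was met by 5 muscle fibre markers (Acta1, Ckm, Myh4, Tnnt3 and Mb), whose summed level was 174300 to 193100 CPM in unoperated muscle and 54500 to 57070, 82060 to 118400 and 98480 to 115900 CPM at 10, 30 and 60 days. The fall was smaller with library totals in place of TMM factors, a scaling added after the data were seen. The sum was then 133300 to 147700 CPM at 0 days and 65880 to 67350, 94540 to 119500 and 103200 to 112300 CPM later. Not every marker fell: the log2 fold change of Mb against 0 days was 1.01 at 30 days and 0.49 at 60 days. In these bulk samples, fewer cells of a type and less RNA per cell cannot be told apart, nor can more cells and more RNA per cell.

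The sequences below are the 250 bases before the transcription start of 4 members that stand for the time courses described further on: Tnn and Postn, whose mean level was highest at 10 days, and the CCN genes Ctgf and Cyr61, whose mean was highest at 60 and 30 days. They are shown because CCN genes are textbook targets of the TEAD factors, which act with the mechanically regulated co-activators YAP and TAZ. Sequences are from RefSeq (rat assembly GRCr8), read 5′ to 3′ on the gene's strand, and capitals mark every match to the motifs searched.
Tnn (chr13:74919790-74920039, minus strand): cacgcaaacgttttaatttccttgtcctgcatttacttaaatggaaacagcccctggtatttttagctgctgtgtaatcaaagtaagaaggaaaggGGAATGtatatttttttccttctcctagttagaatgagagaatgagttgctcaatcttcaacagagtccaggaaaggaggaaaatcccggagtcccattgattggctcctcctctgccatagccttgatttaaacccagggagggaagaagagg
Postn (chr2:140677811-140678060, plus strand): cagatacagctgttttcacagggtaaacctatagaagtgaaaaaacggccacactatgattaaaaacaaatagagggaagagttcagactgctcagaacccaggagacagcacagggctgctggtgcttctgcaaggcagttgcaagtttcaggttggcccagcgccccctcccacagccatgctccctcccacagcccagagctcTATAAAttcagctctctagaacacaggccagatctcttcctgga
Ctgf (chr1:22624615-22624864, minus strand): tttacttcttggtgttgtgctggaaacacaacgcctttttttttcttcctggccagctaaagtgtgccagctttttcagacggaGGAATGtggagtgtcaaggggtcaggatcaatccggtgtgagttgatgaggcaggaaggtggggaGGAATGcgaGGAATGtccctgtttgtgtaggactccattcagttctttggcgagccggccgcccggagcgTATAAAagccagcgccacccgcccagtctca
Cyr61 (chr2:237225690-237225939, minus strand): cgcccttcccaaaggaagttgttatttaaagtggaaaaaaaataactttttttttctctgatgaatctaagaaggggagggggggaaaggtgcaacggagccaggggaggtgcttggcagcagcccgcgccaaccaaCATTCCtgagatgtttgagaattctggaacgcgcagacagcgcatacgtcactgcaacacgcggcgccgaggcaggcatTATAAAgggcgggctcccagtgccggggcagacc

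The letters GGAATG, or CATTCC on the other strand, are the core that TEAD factors bind. They stood 3 times in the Ctgf window, beginning 166, 101 and 92 bases before the start, once in the Cyr61 window at 113 bases and once in the Tnn window at 154 bases. The Postn window had none. Of the 9 members with a RefSeq promoter entry (all but Thbs2), 6 had the motif in this window: Tnn, Thbs1, Thbs4, Sparc, Ctgf and Cyr61. Among all 33469 entries 12.1% had it. The TATA motif TATAAA stood in 5 of 9 members (Tnc, Postn, Spp1, Ctgf and Cyr61), against 12.9% of all entries. It began 31 bases before the start in Ctgf, 34 in Cyr61 and 44 in Postn, but 204 in Spp1 and 208 in Tnc. The AP-1 motif TGANTCA, the palindrome GTCTAGAC bound by SMAD proteins and the CArG box bound by SRF were in 0 of 9 members and in 6.34%, 0.173% and 1.5% of all entries. Both strands were searched, and the motifs capitalised above do not overlap. A match or its absence concerns these letters in this window alone.

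Against unoperated muscle the members were higher rather than lower. With edgeR's quasi-likelihood test and Benjamini-Hochberg adjustment over all 11658 genes tested, 6 of 10 were called higher at 10 days, 9 at 30 days and 7 at 60 days, and 0 were called lower. Of all genes tested, 33.3%, 33.7% and 29.9% were called higher at these times, and 62.7%, 64.6% and 59.0% were called in either direction. The 4 libraries of the operated group all lay above the 4 unoperated ones for 6 members at 10 days, 8 at 30 days and 6 at 60 days, which held for 31.2%, 31.1% and 24.0% of all genes. All 4 lay below for 0 members at each time, and for 27.8%, 29.1% and 26.0% of all genes. The members' median log2 fold change was 1.95, 1.82 and 1.65, beside 0.06, 0.05 and 0.04 over all genes tested. Because the list was drawn up knowing such results, nothing is read from these counts. TMM factors set the bulk of the genes to no change. With library totals instead, that bulk moved up by 0.66, 0.49 and 0.41 (log2) at the 3 times, and 9 of 10 members were called higher at each.

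**Figure D1:**
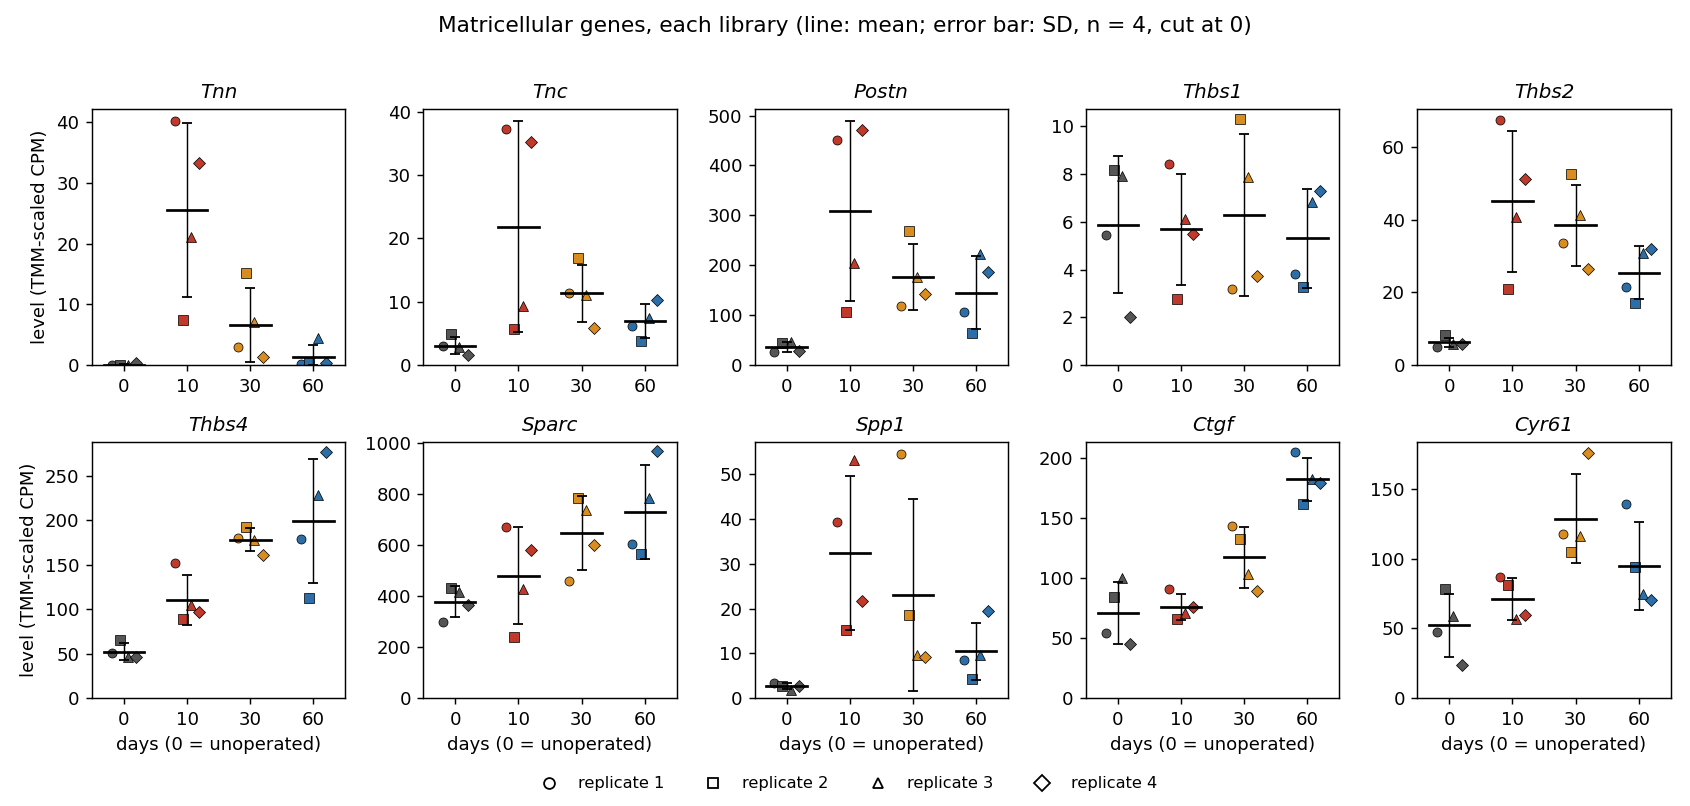
Level of each of the 10 genes in each of the 16 libraries. The y axis is TMM-scaled CPM, the x axis the day after tear and neurectomy (0 is unoperated), symbols are replicates 1 to 4, lines are means and error bars the SD of 4 libraries. The means of Tnn, Tnc, Postn, Thbs2 and Spp1 were highest at 10 days, those of Thbs4, Sparc and Ctgf at 60 days, and Thbs1 stayed between 2.01 and 10.3 CPM in all 16 libraries.

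The members differed in when they were highest. The mean was highest at 10 days for 5 members (Tnn, Tnc, Postn, Thbs2 and Spp1), at 30 days for Cyr61 and Thbs1, and at 60 days for Thbs4, Sparc and Ctgf. This grouping was made after the values were seen.

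Tenascins are large glycoproteins that weaken the adhesion of cells to fibronectin. Tnn encodes the tenascin also called tenascin-W, a protein of developing bone and of tumour stroma. In replicates 1 to 4 it had 1, 1, 0 and 6 fragments at 0 days and 1385, 229, 641 and 1084 at 10 days. It had 86, 637, 176 and 33 fragments at 30 days and 3, 5, 76 and 8 at 60 days. Tnn was thus near the smallest detectable level in unoperated muscle, far above that level in all 10-day libraries and back near it in 3 of the 4 60-day libraries. In CPM the 10-day levels were 40.2, 7.52, 21.1 and 33.3, and the 30-day levels 3.05, 15.1, 7.04 and 1.33. The 60-day levels were 0.138, 0.280, 4.44 and 0.356, and the unoperated libraries averaged 0.0951 ± 0.130 (SD, n = 4). The 10- and 30-day libraries all lay above the unoperated ones and overlapped each other, while the 60-day libraries lay below all 10-day libraries and overlapped the other groups. The fitted log2 fold change against 0 days was 8.06 ± 1.25 (SE), 6.15 ± 1.33 and 3.68 ± 1.69 at 10, 30 and 60 days. These rest on 8 fragments in all 4 unoperated libraries, so their size is poorly fixed. Without 60-day replicate 3, which held 76 of the group's 92 fragments, the 60-day value was 1.46, and without 0-day replicate 4, which held 6 of the 8, the 10-day value was 9.54. The 60-day value was not called, but was called with library totals (4.06), with DESeq2 (3.77) and without 30-day replicate 2 (3.67).

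Tnc, tenascin-C, is the tenascin of embryonic tissue, tendon and wounds. Its levels were 2.98, 4.88, 2.85 and 1.58 CPM at 0 days and 37.3, 5.65, 9.33 and 35.1 CPM at 10 days. Later they were 11.4, 16.9, 11.1 and 5.91 CPM at 30 days and 6.22, 3.81, 7.37 and 10.3 CPM at 60 days. The 10-day libraries fell into a high pair (replicates 1 and 4) and a low pair (2 and 3), and even the low pair lay above every unoperated library. The 60-day group overlapped both the unoperated and the 30-day group. The log2 fold change against 0 days was 2.81 ± 0.57 (SE), 1.87 ± 0.56 and 1.16 ± 0.58 at 10, 30 and 60 days. The 60-day value was not called, but was called with library totals (1.58), when only these groups were fitted (1.18) and without 10-day replicate 2 (1.16).

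Postn, periostin, is a fasciclin-domain protein that binds collagen and brings BMP1 and lysyl oxidase together for collagen cross-linking. Its levels were 26.5, 45.1, 45.5 and 28.7 CPM at 0 days and 451, 107, 206 and 472 CPM at 10 days. They were 119, 269, 176 and 143 CPM at 30 days and 107, 63.9, 224 and 186 CPM at 60 days. Every operated library lay above every unoperated one, and the operated groups overlapped one another. At 10 days the same replicates 1 and 4 were high as for Tnc. The mean went from 36.5 ± 10.3 CPM (SD, n = 4) to 309 ± 181, 177 ± 65.8 and 145 ± 72.8, and the fitted fold change was 8.44, 4.84 and 3.97 at 10, 30 and 60 days (log2 3.08 ± 0.48, 2.27 ± 0.46 and 1.99 ± 0.46, SE).

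Among the thrombospondins, calcium-binding glycoproteins of several subunits, 2 of the 3 members were called against unoperated muscle. The exception was Thbs1, which activates latent TGF-beta and restrains vessel growth. Its levels were 5.45, 8.18, 7.90 and 2.01 CPM at 0 days and 8.41, 2.76, 6.10 and 5.47 at 10 days. They were 3.19, 10.3, 7.88 and 3.74 CPM at 30 days and 3.83, 3.25, 6.84 and 7.29 at 60 days. All 4 groups overlapped. The log2 fold changes of -0.06 ± 0.45 (SE), 0.10 ± 0.45 and -0.16 ± 0.46 at 10, 30 and 60 days were smaller than their SE and were not called, and with library totals the 10- and 60-day values were 0.61 and 0.26.

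Thbs2, a close relative of Thbs1 that also restrains vessel growth and affects how collagen fibrils assemble, was called higher at all 3 times. Its levels were 5.12, 8.22, 5.89 and 5.75 CPM at 0 days and 67.3, 20.9, 40.7 and 51.2 at 10 days. They were 33.6, 52.5, 41.2 and 26.6 CPM at 30 days and 21.4, 17.2, 31.0 and 32 at 60 days. All 12 operated libraries lay at least at 17.2 CPM, above the highest unoperated library at 8.22, and the operated groups overlapped. The fold change was 7.16, 6.12 and 4.03 at 10, 30 and 60 days (log2 2.84 ± 0.33, 2.61 ± 0.33 and 2.01 ± 0.33, SE).

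Thbs4 is the thrombospondin of tendon and muscle, where it supports the attachment of fibres to the matrix. Its levels were 50.6, 65.6, 46.0 and 46.6 CPM at 0 days and 152, 88.6, 104 and 97.2 at 10 days. They were 179.9, 193, 178 and 161 CPM at 30 days and 179, 113, 228 and 276 at 60 days. The 30-day libraries lay within 1.19-fold of one another and above all 10-day libraries, which in turn lay above all unoperated ones. The 60-day group spread over 2.46-fold and overlapped both the 10- and 30-day groups. The log2 fold change was 1.08 ± 0.23 (SE), 1.77 ± 0.23 and 1.93 ± 0.23 at 10, 30 and 60 days.

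Sparc, also called osteonectin, is a collagen-binding glycoprotein that takes part in collagen processing and basement membranes. Its levels were 298, 434, 416 and 365 CPM at 0 days and 672, 240.2, 427 and 582 at 10 days. They were 461, 785, 740.2 and 602 CPM at 30 days and 606, 567, 784 and 969.5 at 60 days. At 10 days 1 library (replicate 2, at 240.2 CPM) was below all unoperated ones and 2 were above them, and at 30 and 60 days all 8 libraries were above them. The log2 fold change was 0.34 ± 0.27 (SE), 0.78 ± 0.27 and 0.95 ± 0.27 at 10, 30 and 60 days, and the first was not called. Without 10-day replicate 2 the 10-day value was 0.57 and called, as it was with library totals (1.01). The 30-day call was lost without 0-day replicate 1 (0.68) or 30-day replicate 2 (0.67).

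Spp1, osteopontin, is a phosphoprotein of bone that injured muscle and activated macrophages also secrete, and that binds integrins and the receptor Cd44. Its levels were 3.37, 2.68, 1.83 and 2.63 CPM at 0 days and 39.3, 15.3, 53.2 and 21.6 at 10 days. They were 54.6, 18.6, 9.56 and 9.17 CPM at 30 days and 8.53, 4.15, 9.53 and 19.4 at 60 days. All operated libraries were above all unoperated ones, and the operated groups overlapped. Replicate 1 stood far above the other 30-day libraries, and the log2 fold change at that time was 3.14 ± 0.64 (SE) with it and 2.26 without it. The log2 fold change was 3.63 ± 0.64 at 10 days and 2.00 ± 0.65 at 60 days, and the 60-day call was lost without 60-day replicate 4 (1.52).

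CCN proteins are cysteine-rich matrix proteins that bind integrins and growth factors, and both members are induced by TGF-beta and by stretch. Ctgf levels were 53.9, 83.9, 100.3 and 44.9 CPM at 0 days and 90.6, 65.7, 70.4 and 75.4 at 10 days. They were 143, 132, 103 and 89.2 CPM at 30 days and 205, 162, 182 and 179 at 60 days. All 10-day libraries lay within the range of unoperated muscle, and all 60-day libraries lay above every other library. The log2 fold change was 0.09 ± 0.21 (SE), 0.73 ± 0.21 and 1.36 ± 0.21 at 10, 30 and 60 days. The 10-day value was not called, but was called with library totals (0.76).

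Cyr61 levels were 47.4, 78.0, 59.2 and 24.0 CPM at 0 days and 86.8, 81.4, 56.8 and 59.9 at 10 days. They were 118, 105, 116 and 176 CPM at 30 days and 139, 94.5, 74.8 and 70.7 at 60 days. The 30-day libraries lay above all unoperated and all 10-day libraries, and the 60-day libraries overlapped every group. The log2 fold change was 0.45 ± 0.30 (SE), 1.30 ± 0.30 and 0.86 ± 0.30 at 10, 30 and 60 days. With library totals the 10-day value was 1.10 and called. The 60-day call was lost without 0-day replicate 1 (0.83) or 60-day replicate 1 (0.61).

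**Figure D2:**
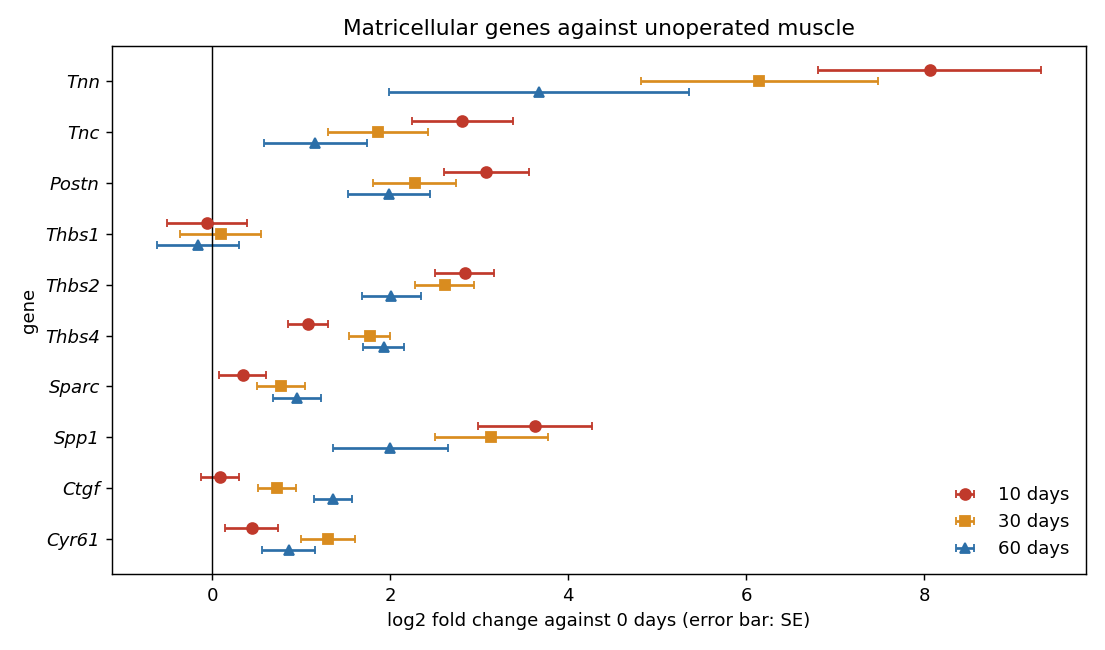
Log2 fold change of the 10 genes at 10, 30 and 60 days against 0 days, from 1 edgeR model of all 16 libraries, with the SE as error bars. The values of Tnn, Tnc, Postn, Thbs2 and Spp1 were largest at 10 days, those of Thbs4, Sparc and Ctgf at 60 days, and those of Thbs1 lay within 1 SE of 0.

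The log2 differences between the operated groups do not rest on the level in the unoperated libraries. The calls are not independent of those libraries, because all 16 entered 1 model. From 10 to 60 days the call of Postn was lost without any 1 of 0-day replicates 1 to 4. From 10 to 30 days that of Tnn was lost without 0-day replicate 1 or 2. From 10 to 60 days 5 members were called lower and 2 higher, against 31.9% and 29.1% of all genes, or 61.1% in either direction. With upper-quartile factors it was 4 lower and 3 higher. The log2 differences of those called lower were -4.39 ± 0.89 (SE) for Tnn, -1.65 ± 0.53 for Tnc, -1.63 ± 0.56 for Spp1, -1.09 ± 0.44 for Postn and -0.83 ± 0.30 for Thbs2. Those called higher were Ctgf (1.27 ± 0.21) and Thbs4 (0.85 ± 0.22). The values of Sparc (0.61 ± 0.27), Cyr61 (0.41 ± 0.29) and Thbs1 (-0.10 ± 0.46) were not called. Among the 10 members the groups stood apart for Tnn, which was lower, and Ctgf, which was higher, against 27.5% and 23.7% of all genes. Only the calls of Tnn, Ctgf and Thbs4 held when each library was left out in turn. Without 60-day replicate 1, 4 members were called, and with the replicate block or only these groups fitted, 5.

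From 10 to 30 days Thbs4 (0.69 ± 0.22, SE), Ctgf (0.63 ± 0.21) and Cyr61 (0.85 ± 0.30) were called higher and Tnn (-1.91 ± 0.72) lower. Of all genes 23.0% and 24.3% were called in these directions, 47.3% in all. Thbs4 and Cyr61 were higher without overlap, as were 21.0% of all genes. With library totals 0 members were called higher and 1 lower. The call of Tnn was lost in 8 of 16 fits that each left out 1 library, and those of Thbs4, Ctgf and Cyr61 in 1, 4 and 3. Without 10-day replicate 3 only Thbs4 was called, and without 10-day replicate 4 or 30-day replicate 4, 2 members were. From 30 to 60 days Ctgf alone was called, higher by log2 0.64 ± 0.21 (SE), against 10.3% of all genes (22.6% in either direction). It was also the 1 member higher without overlap, against 8.87% of all genes. That call was lost without any 1 of 30-day replicates 3 and 4 and of the 4 60-day libraries, which lowered or raised the value to between 0.53 and 0.69. Between these times Tnn differed by -2.47 ± 0.89, not called, and by -4.69, called, without 60-day replicate 3.

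Libraries of a group were not equally high, and the members shared this. At 10 days replicate 1 was the highest for 8 of 10 members and replicate 2 the lowest for 9. At 30 days replicate 2 was the highest for 7 and replicate 4 the lowest for 6, and at 60 days replicate 4 was the highest for 6 and replicate 2 the lowest for 8. How often these libraries were highest or lowest over all genes was not counted, so this is not shown to be particular to the members. The highest 10-day library was 6.60 times the lowest for Tnc, 5.34 for Tnn and 4.41 for Postn, but 1.38 for Ctgf and 1.53 for Cyr61. At 10 days the summed fibroblast markers were 538, 384, 397 and 497 CPM in replicates 1 to 4, highest and lowest in the same libraries, and the tendon cell markers 141, 108, 118 and 128. Their part in the spread was not tested.

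**Figure D3:**
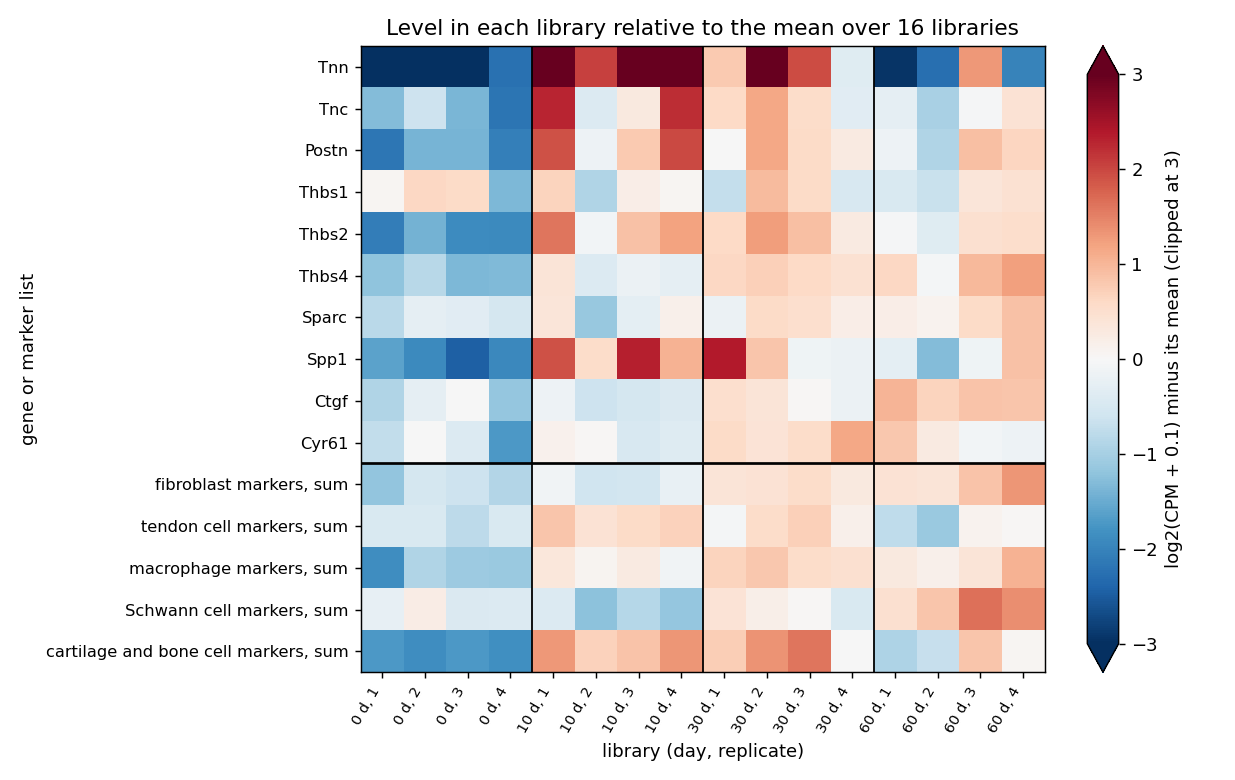
Colour shows log2(CPM + 0.1) of each gene, or of the summed markers of a cell type, minus its mean over the 16 libraries, with values past 3 shown as 3. Columns are libraries by day and replicate. Within the 10-day group replicate 2 is pale or blue for all members but Tnn, replicates 1 and 4 are red for Tnn, Tnc and Postn, and 60-day replicate 3 is the only 60-day library with Tnn above its mean.

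Summed markers of several cell types moved with the groups, some up and some down. The 8 fibroblast markers in the table (Pdgfra, Dcn, Lum, Thy1, Pi16, Fap, Dpt and Col1a2) summed to 256 to 401 CPM in unoperated muscle and 384 to 538, 715 to 858 and 757 to 1465 CPM at 10, 30 and 60 days. Of the 7 that could be tested, 3, 7 and 7 were called higher, and Col1a2 is listed at 0 in all 16 libraries although Col1a1 averaged 130.3 CPM at 0 days. The macrophage markers (7 in the table, Cd68 and Csf1r among them) summed to 19.5 to 38.5, 67.1 to 91.5, 100.1 to 126 and 79.5 to 147 CPM. The 5 tendon cell markers in the table summed to 45.8 to 58.1, 108 to 141, 76.2 to 129.8 and 36.7 to 85.5 CPM, so that only the 10- and 30-day groups stood clear of unoperated muscle. Cartilage and bone markers (6 in the table) were scarce, at 1.32 to 1.47, 8.28 to 12.7, 4.99 to 15.6 and 2.63 to 9.06 CPM. Platelets are a source of thrombospondin-1, and their markers (4 in the table) summed to 2.75 to 5.06, 3.25 to 4.09, 7.32 to 8.64 and 4.88 to 13.2 CPM. Smooth muscle cell and pericyte markers (6) summed to 298 to 399.8, 111 to 168, 191 to 236 and 214 to 438 CPM, and endothelial markers (6) to 283 to 337, 149 to 235, 222 to 262 and 245 to 388 CPM. At 10 days both sums lay below all unoperated libraries. With library totals, a scaling of the markers added after the data were seen, the smooth muscle sum still did (131 to 208 against 228 to 305 CPM), but the endothelial sum overlapped (176 to 290.2 against 220 to 258 CPM). Schwann cell markers (6) summed to 51.0 to 80.8, 29.4 to 52.1, 50.1 to 90.9 and 96.7 to 216 CPM, and adipocyte markers (5) to 7.93 to 44.1, 9.29 to 26.1, 12.3 to 30.1 and 55.6 to 128 CPM. Satellite cell markers (4) summed to 5.98 to 7.5, 9.53 to 17.7, 10.2 to 15.6 and 9.24 to 13.6 CPM. Only 1, 1 and 2 of these 4 were called higher at 10, 30 and 60 days. At 10 and 30 days Myf5 was 1.77 and 1.78 (log2), and Pax7 was -0.17 and -0.87, not called. Blood cell markers (7) summed to 604 to 1956, 211 to 277, 289 to 709 and 359 to 885 CPM, and did not move alike. Of 6 tested, 3 were called lower at 10 days, among them Hba1 (-1.98) and Hbb (-2.08). The other 3 were called higher, among them Ptprc (1.60) and Cd3e (1.96). The part of these cell types in the members' levels was not tested.

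The members were also set against the fibroblast marker sum of the same library, a measure added after the data were seen. On this scale 5, 4 and 1 members were above unoperated muscle without overlap at 10, 30 and 60 days, fewer than the 6, 8 and 6 in CPM. The share over all genes was not computed on this scale. The mean marker sum was higher at each of these times, which lowers the ratio of any gene, so nothing is read from these counts. Most of the sum was Dcn, with a mean of 239 of 338 CPM at 0 days, and the markers did not move alike. At 10 days the log2 fold change was 0.09 for Dcn, 1.81 for Lum and 2.54 for Thy1, beside 3.08 for Postn, so the ratio depends on the marker. Postn amounted to 9.08 to 12.1% of that sum in unoperated muscle and to 27.9 to 94.9%, 15.6 to 34.0% and 8.45 to 21.3% at 10, 30 and 60 days. Thbs2 went from 1.56 to 2.05% to 5.45 to 12.5%, 3.72 to 6.64% and 2.18 to 2.95%, the only member above unoperated muscle without overlap at all 3 times. Tnn and Postn were so at 10 and 30 days, Tnc and Spp1 at 10 days and Thbs4 at 30 days. The Sparc percentage was 108 to 116% at 0 days, 60.5 to 99.4% at 30 days and 66.2 to 77.2% at 60 days, below all unoperated libraries at both. Sparc itself was 1.71 and 1.93 times its 0-day level at these times, while the mean marker sum went from 338 to 781 and 1014 CPM, so a lower percentage is not a lower level. Ctgf, Cyr61 and Thbs1 overlapped unoperated muscle at all 3 times. Ctgf was 14.2 to 26.6% at 0 days and 12.2 to 26.1% at 60 days.

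**Figure D4:**
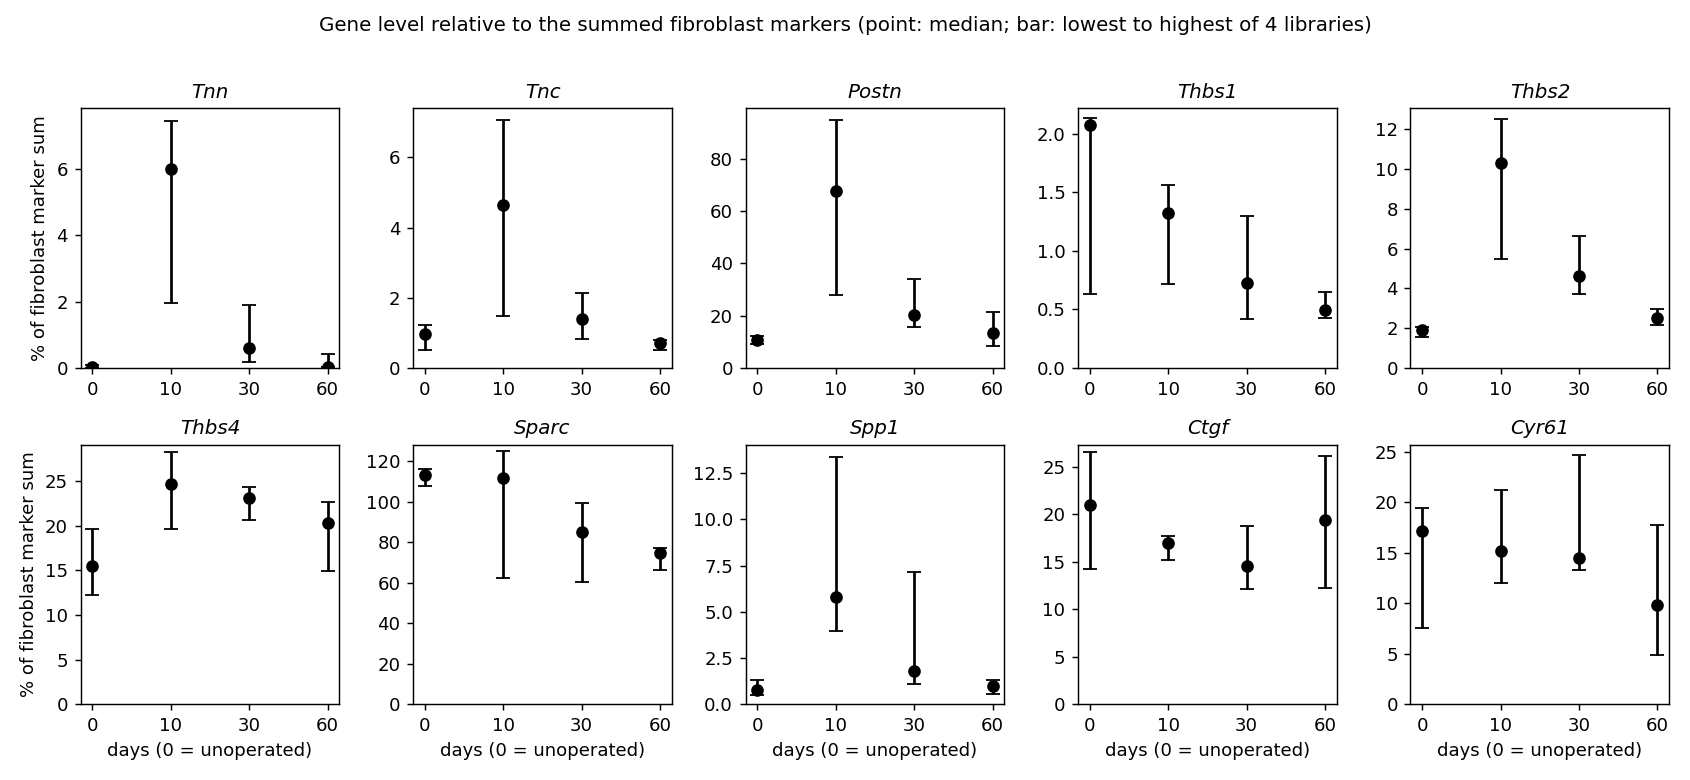
Level of each gene as a percentage of the summed CPM of 8 fibroblast markers in the same library. Points are medians and bars run from the lowest to the highest of 4 libraries, by day. Postn, Tnn, Tnc, Thbs2 and Spp1 stand above unoperated muscle at 10 days, and the Sparc percentage lies below it at 30 and 60 days, when its level in CPM was higher.

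Of the genes tested with a mean of at least 5 CPM, those whose pattern over the 16 libraries was most like a member's were found by the root mean square difference of centred log2 CPM. For Postn the nearest were Col1a1, a chain of type I collagen, at 0.30, and C1qtnf3 at 0.33, and for Tnc they were the collagen genes Col11a1 (0.44) and Col1a1 (0.45). Thbs2 was nearest to the fibroblast surface gene Thy1 (0.28) and to Comp, itself a thrombospondin (0.32). Thbs4 was nearest to Pdgfra, a receptor of fibro-adipogenic progenitors (0.20), and Mgp (0.21). Sparc was nearest to Kdelr3, a retrieval receptor for secreted proteins (0.15), and Fstl1, a relative of Sparc (0.15). For Tnn they were Cthrc1 (1.35) and Blnk (1.47), for Spp1 Abcg1 (0.67) and Vopp1 (0.70), for Ctgf Cxcl14 (0.27) and Emp1 (0.28), for Cyr61 Abr (0.38) and Sync (0.40), and for Thbs1 Angptl2 (0.51) and Vasp (0.51). On the same scale the members' own spread over the libraries was 1.25 for Postn and 0.66 for Thbs1. The member nearest to Postn was Thbs2 (0.35), and the member nearest to Tnc was Postn (0.47), both at rank 3 among 8234 genes. For other members many genes lay nearer than any member did. The nearest member stood at rank 282 for Thbs4 (0.50), 304 for Ctgf (0.46), 688 for Cyr61 (0.57) and 805 for Sparc (0.46). For Thbs2, Spp1, Tnn and Thbs1 the nearest member stood at rank 4 (0.35), 12 (0.77), 52 (2.02) and 63 (0.60). The distance for Ctgf and Sparc was no larger than that for Tnc, so a high rank is not a large distance.

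Related genes, receptors, regulators and matrix partners were read from 4 lists with 114 genes, of which 98 were in the table and 95 could be tested. These lists too were chosen with earlier results of these data known, and the genes named from them were picked by their values. Their adjusted p-values below are therefore a description and no independent test. At 10 days 48 were called higher and 17 lower, at 30 days 55 and 14, and at 60 days 56 and 14. Among all genes tested 33.3%, 33.7% and 29.9% were called higher and 29.4%, 30.9% and 29.1% lower. The split depends on the scaling: with library totals it was 73 and 3, 72 and 4, and 70 and 5. The lists' median log2 fold change was 0.45, 0.80 and 0.89, beside 0.06, 0.05 and 0.04 over all genes tested.

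**Figure D5:**
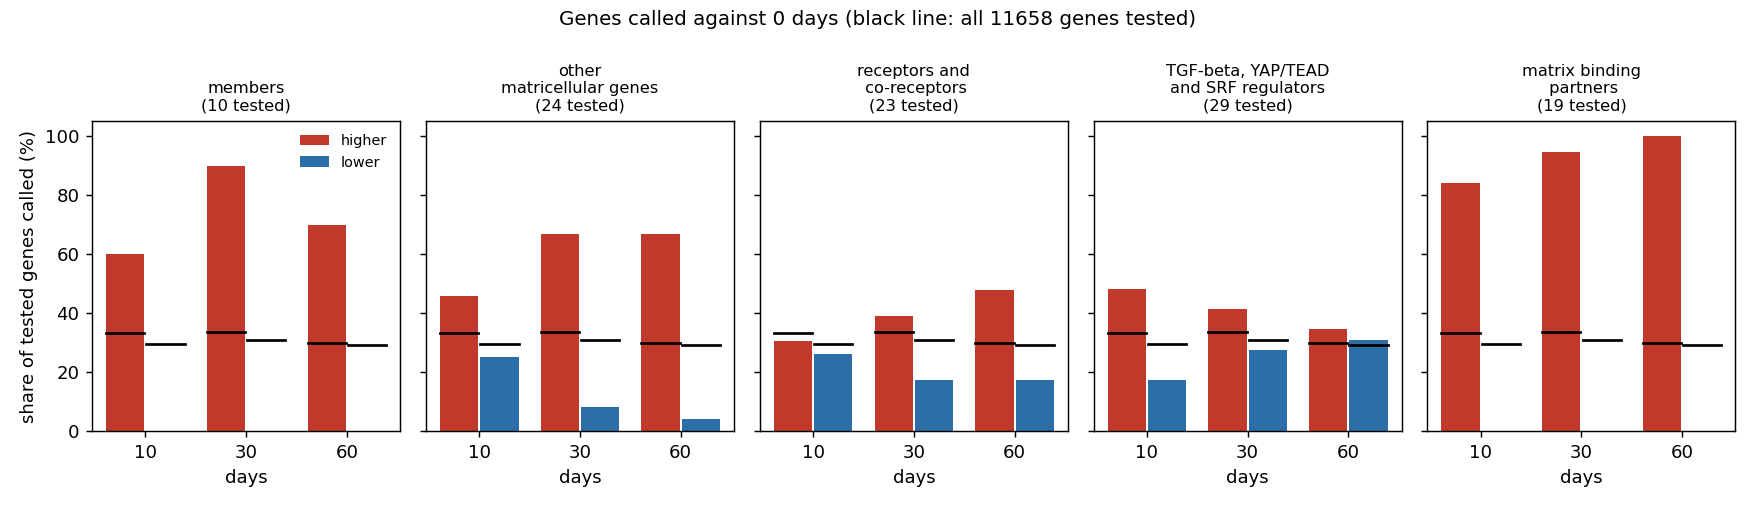
Share of the tested genes of each list that edgeR called higher (red) or lower (blue) against 0 days, by day. Black lines give the share among all 11658 genes. All 19 matrix binding partners were called higher at 60 days, while for the regulators the shares of higher and lower calls at 60 days, 10 and 9 of 29, were close to those of all genes.

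Of 24 other matricellular genes tested, 11, 16 and 16 were called higher and 6, 2 and 1 lower at 10, 30 and 60 days (with library totals 15, 18 and 19 higher and 1, 1 and 0 lower). Comp, the pentameric thrombospondin of cartilage and tendon, averaged 1.11 ± 0.170 CPM (SD, n = 4) in unoperated muscle and 8.19 ± 3.62, 8.88 ± 2.46 and 4.93 ± 0.856 CPM at 10, 30 and 60 days. It rose by log2 2.87 ± 0.32 (SE; edgeR adjusted p 8.26e-07), 2.99 ± 0.32 (6.83e-07) and 2.14 ± 0.32 (3.92e-05). Lgals1, which encodes galectin-1, rose at 10 days (1.87 ± 0.13, edgeR adjusted p 3.69e-09), Fbln1, fibulin-1, at 30 days (1.98 ± 0.22, 1.52e-06) and Ccdc80 at 60 days (2.05 ± 0.36, 0.000192). Nov, the CCN gene also called Ccn3, fell at 10 days (-1.20 ± 0.26, edgeR adjusted p 0.000835), was 0.05 at 30 days and rose at 60 days (0.91, 0.00563). Ecm1 did so as well, from -0.95 at 10 days to 0.45 at 60 days (edgeR adjusted p 0.000187 and 0.0356). With library totals neither was called at 10 days (-0.54 for Nov and -0.29 for Ecm1). The 2 called lower at 30 days were Dmp1 and Spock2, and the 1 at 60 days was Spock2, which was not called at either time with library totals (-0.34 and -0.13). They are named after their values were seen. In the tenascin family, Tnr had at most 2 fragments in any library and was not tested.

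Of 23 receptors and co-receptors tested, 7, 9 and 11 were called higher and 6, 4 and 4 lower (with library totals 16, 17 and 15 higher and 1, 1 and 1 lower). Among all genes 33.3%, 33.7% and 29.9% were called higher and 29.4%, 30.9% and 29.1% lower, so the 7 and 9 higher at 10 and 30 days are near the share of all genes. Cd44, a receptor of hyaluronan and osteopontin, rose from 11.9 ± 1.84 CPM (SD, n = 4) to 25.6 ± 4.18, 26.8 ± 1.94 and 32.5 ± 8.22 (log2 1.10, 1.17 and 1.45; edgeR adjusted p 2.76e-05, 1.77e-05 and 3.06e-06). Lrp1, a scavenger receptor that takes up thrombospondins and CCN proteins, rose by 1.08, 1.22 and 1.21 (edgeR adjusted p 7.50e-07, 2.73e-07 and 4.70e-07). Cd36, a thrombospondin receptor and fatty acid transporter, fell at all 3 times (-1.44, -1.10 and -0.60; edgeR adjusted p 7.23e-07, 1.45e-05 and 0.00334). Cacna2d1, a calcium channel subunit that binds thrombospondins, fell by 1.06 at 30 days and 1.41 at 60 days on the log2 scale (edgeR adjusted p 0.00491 and 0.000767). The laminin receptor subunit Itga6 fell at 10 days (-0.79 ± 0.16, SE; edgeR adjusted p 0.000346). With library totals the calls of Itga6 at 10 days (-0.13), Cacna2d1 at 30 days (-0.56) and Cd36 at 60 days (-0.19) were lost. Besides Cd36 and Cacna2d1, those called lower were Itga4 and Itgb5 at 30 days and Lrp6 and Itgb5 at 60 days, and Itgb5 was 0.01 and 0.07 with library totals. The common subunit Itgb1 was -0.03, -0.13 and 0.22, not called, and with library totals it was called higher at all 3 times (0.63, 0.36 and 0.62).

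Of 29 regulators tested, 14, 12 and 10 were called higher and 5, 8 and 9 lower (with library totals 24, 18 and 17 higher and 1, 2 and 4 lower). At 30 and 60 days these counts are near the shares of all genes, 33.7% and 29.9% higher and 30.9% and 29.1% lower. Tgfb2, a TGF-beta ligand, rose from 26.6 ± 2.54 CPM (SD, n = 4) to 136 ± 20.4 at 10 days (2.35 ± 0.28, SE; edgeR adjusted p 3.21e-06). Ltbp1, which holds latent TGF-beta in the matrix, rose by 2.88, 2.1 and 1.67 (edgeR adjusted p 3.20e-09, 8.15e-08 and 1.35e-06), and Ltbp2 by 2.38 and 2.32 at 30 and 60 days (1.16e-05 and 2.34e-05). Srf, the factor that binds the CArG box, fell at 10 days (-1.25 ± 0.10, edgeR adjusted p 1.18e-08) and 30 days (-1.07 ± 0.10, 9.22e-08). Tead1, a TEAD factor, fell at 30 days (-1.95 ± 0.29, edgeR adjusted p 3.63e-05) and 60 days (-1.71 ± 0.30, 0.000166). The 5 called lower at 10 days were Srf, Tead1, Ajuba, Lats2 and Tead3, and the last 3 were above 0 with library totals (0.26, 0.36 and 0.31). With library totals Tead1 was -0.43 and not called, and Srf was -0.59 and called. The other YAP, TAZ and TEAD genes went both ways. At 10, 30 and 60 days Wwtr1 (TAZ) was 1.24, 0.05 and -0.52, and Yap1 was 0.06, -0.77 and -0.82. Tead3 was -0.35, 0.45 and 0.89, and Tead2 was -0.31, -0.22 and 0.16. Scx, scleraxis, the factor that specifies tendon cells, averaged 23.8 ± 1.47 CPM (SD, n = 4) in unoperated muscle and 62.6 ± 4.44, 30.6 ± 7.03 and 7.33 ± 1.19 CPM at 10, 30 and 60 days. It rose at 10 days (1.40 ± 0.14, SE; edgeR adjusted p 1.70e-07) and fell below unoperated muscle at 60 days (-1.69 ± 0.15, SE; edgeR adjusted p 1.21e-07).

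Of 19 matrix binding partners tested, 16, 18 and 19 were called higher and 0 lower at any time. Bgn, the proteoglycan biglycan, rose by log2 2.28 ± 0.25 (SE; edgeR adjusted p 1.04e-06), 2.55 ± 0.25 (4.48e-07) and 2.26 ± 0.25 (2.22e-06). Lum, lumican, which shapes collagen fibrils, rose by 2.02 and 1.97 at 30 and 60 days (edgeR adjusted p 3.87e-05 and 6.63e-05). Col1a1, a periostin ligand, rose by 2.42 ± 0.46 (SE; edgeR adjusted p 0.000285) at 10 days and was lower at 60 than at 10 days (-1.09 ± 0.44, 0.0437), as Postn was. The 3 not called at 10 days were Dcn (0.09), Eln (-0.07) and Fbn1 (-0.01), and with library totals they were 0.75, 0.59 and 0.66, of which Dcn and Fbn1 were called higher. The 1 not called at 30 days was Col5a1 (0.76).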

How the data were processed

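The authors deposited 1 table of raw fragments per gene for 16 libraries, which are expected counts: 233 of 17147 genes have a fractional value. The submitters' processing notes name bcl2fastq 1.8.4, FastQC, TopHat2 2.0.9, Bowtie2 2.1.0.0, Cufflinks, Cuffdiff 2.1.1 and the build rn5. Strandedness, annotation and filters are not given in the sources used here, so reads of overlapping genes or close relatives, such as the thrombospondins, may be shared. RNA came from a miRNeasy kit and libraries from a TruSeq mRNA kit, per the labels' protocols. Groups were taken from the labelled time.

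Counts were rounded. All 16 libraries entered 1 edgeR 4.0.16 quasi-likelihood model (R 4.3.3, TMM, robust, no covariate) over the 11658 genes kept by filterByExpr, with Benjamini-Hochberg adjustment and a threshold of 0.05. The SE is the log2 fold change divided by the square root of F. On simulated data for 10 against 0 days (11531 genes), 189 of 200 genes changed 2-fold and 6 unchanged ones were called. The changed genes had a mean of at least 5 CPM and went up and down in equal number. In the data 62.7% of genes were called at that time, so the simulation does not cover so wide a shift, nor genes near the floor. Libraries of a group differed beyond counting error (chi-square per gene 13.3 to 102). Floors cover counting error only.

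Members and lists were chosen with earlier results of these data known. Of each companion list, the genes named were the 2 highest and 2 lowest log2 fold changes per time among called genes with a mean of at least 5 CPM and no overlap. For each member the 2 nearest genes by pattern were named. Other names were chosen after their values were seen. Alternatives were RLE, upper-quartile and no scaling factors, DESeq2 1.42.0, no filter, fits of 2 groups, the replicate block and leaving out each library. Promoters are RefSeq sequences of GRCr8, used for sequence only. Markers were listed for 12 cell types. Figures were drawn with matplotlib 3.10.9.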

Additional observations from a re-analysis of the deposited data

Results flagged for a closer look

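Tnn at 60 days was 4.44 CPM in replicate 3 and at most 0.356 in the other libraries, a gap of 95.0% of the group's range. Among the 40 groups, 10 members at 4 times, it was the only one with such a stray library. Chance alone flags about 1 in 20 groups, so 1 among 40 is no more than chance would give. In the same library the tendon cell markers (85.5 CPM), the cartilage and bone markers (9.06), the Schwann cell markers (216) and the adipocyte markers (128.5) were the highest of the group. Their part in the Tnn value was not tested.

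The effect of injury passed the threshold for a difference between times in 12 results, given here as log2 differences ± SE. Between 60 and 10 days it was lower for Tnn (-4.39 ± 0.89), Tnc (-1.65 ± 0.53), Postn (-1.09 ± 0.44), Thbs2 (-0.83 ± 0.30) and Spp1 (-1.63 ± 0.56), and higher for Thbs4 (0.85 ± 0.22) and Ctgf (1.27 ± 0.21). Between 30 and 10 days it was lower for Tnn (-1.91 ± 0.72) and higher for Thbs4 (0.69 ± 0.22), Ctgf (0.63 ± 0.21) and Cyr61 (0.85 ± 0.30). Between 60 and 30 days it was higher for Ctgf (0.64 ± 0.21). Of all genes tested, 61.1%, 47.3% and 22.6% were called in either direction in these comparisons, in the same order. Nothing is read from the number of results.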

How the results depend on the processing

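The count of members called against 0 days was 6 to 9 at 10 days, 9 at 30 days and 7 to 9 at 60 days over the 7 alternatives, and 6 to 7, 8 to 9 and 6 to 8 when 1 library was left out. Between 30 and 10 days, 4 members were called, but 1 with library totals, 2 with no filter for low counts and 1 to 4 without 1 library. Between 60 and 30 days 1 was called, but 0 with library totals, 0 with no filter and 0 to 2 without 1 library (with DESeq2 1). Between 60 and 10 days 7 were called, 5 to 8 over the alternatives and 4 to 7 without 1 library. Companion genes called numbered 61 to 76, 67 to 76 and 65 to 75 at 10, 30 and 60 days over the alternatives, and 53 to 66, 65 to 71 and 58 to 72 without 1 library.

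Of 419 log2 fold changes of members under the alternatives, 5 changed sign, all of Thbs1 and none called: at 10 against 0 days 0.008 with upper-quartile factors, 0.61 with library totals and 0.039 with the replicate block, at 60 against 0 days 0.26 with library totals, and at 30 against 10 days -0.036 with library totals. A further 16 lost and 10 gained a call. Of 960 values without 1 library, 46 lost and 12 gained a call, and 20 changed sign, none of them called. The values that changed sign lay in the ranges -0.34 to 0.17, -0.27 to 0.31, -0.43 to 0.063, -0.21 to 0.41, -0.47 to 0.11 and -0.33 to 0.15 for Thbs1 at 10, 30 and 60 against 0 days, 30 against 10, 60 against 30 and 60 against 10 days, -0.46 to 0.034 for Thbs2 at 30 against 10 days, -0.027 to 0.36 for Thbs4 at 60 against 30 days and -0.069 to 0.31 for Ctgf at 10 against 0 days. The cause of these changes was not tested. 

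The replicate block took the suffix of each column name. Libraries sharing a suffix did not deviate together (mean correlation across genes 0.00129 over 24 pairs, and 3 of 16 libraries were most like their own suffix). No pairing by these numbers was thus seen, though a weak one could be missed. With the block 6, 9 and 7 members were called at 10, 30 and 60 against 0 days, and 3, 1 and 5 at 30 against 10, 60 against 30 and 60 against 10 days. Companion genes called were 61, 70 and 69. Depth limited Tnn most, with 8 fragments in the 0-day and 92 in the 60-day group.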
